A study of Mus musculus with 18 samples.

Results

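The genes described here are the 78 protein-coding mouse genes named Mrpl or Mrps followed by a digit, 49 Mrpl and 29 Mrps, out of 53465 genes in the count table, of which 22040 are protein-coding. The rule uses the gene names and no measured value, and 5 pseudogene rows that carry the same names were left out. Their products are proteins of the mitochondrial ribosome, which sits in the mitochondrial matrix and translates the few messenger RNAs that the mitochondrial genome encodes, all of them for subunits of the respiratory chain and the ATP synthase. The ribosomal RNAs of this ribosome come from the mitochondrial genome, whereas its proteins are encoded in the nucleus, made in the cytosol and imported. The large subunit (the MRPL names) forms peptide bonds and the small subunit (the MRPS names) decodes the message, and both contain proteins with a counterpart in the bacterial ribosome and proteins that are found in mitochondria only. By this knowledge 51 of the 78 were counted with the large subunit and 26 with the small one, 45 had a bacterial counterpart and 33 had none. Mrps18a and Mrps30 were counted with the large subunit, where their proteins are placed despite the names. Mrps36, whose protein belongs to the alpha-ketoglutarate dehydrogenase complex, was counted with neither.

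The RNA came from 9 female C57BL/6J mice aged 8 to 10 weeks, which all received a contusion of the spinal cord at thoracic level and, 48 h later, an injection into the cord of vehicle (PBS, mice 1, 2 and 3), of 100 ng recombinant interleukin 13 (rIL-13, mice 5, 6 and 7) or of 100 ng recombinant interleukin 4 (rIL-4, mice 8, 9 and 10). Cells were sorted 24 h after the injection by surface proteins, microglia as CD45 low and macrophages as CD45 high among the CD11b+ F4/80+ cells, so that each mouse gave a microglia library and a macrophage library, 18 in all and 3 for each of the 6 groups. Because all mice were injured and the vehicle was injected as well, every comparison is between injured and injected cords. The comparisons ask what each cytokine changed in each cell type and how the cell types differed after the same treatment.

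The libraries held 35961305 to 45849829 counts, and the least counted member in any library still had 271 counts (Mrpl53), so that all 78 passed the filter on low counts in each of the 11 comparisons. The summed microglia markers ran from 280193 to 480504 normalized counts in PBS microglia and from 102883 to 152693 in PBS macrophages, and were lower after rIL-4 in both (120126 to 187429 and 17425 to 32189). The summed markers of monocyte-derived macrophages ran the other way, from 3762 to 14771 in PBS microglia and 463178 to 826109 in rIL-4 microglia. In macrophages the sums were 90515 to 197924 after PBS and 3310120 to 4244770 after rIL-4. Most of the rIL-4 sums was the cytokine-responsive Chil3, at 455080 to 811266 in microglia and 3264590 to 4162330 in macrophages. Other listed markers did not all rise in macrophages. F10 had 7974 to 10605 after PBS and 17372 to 32961 after rIL-4, whereas Ms4a7 had 6756 to 9283 and 4960 to 7377. Genes of fibroblasts and pericytes summed to 9137 to 333261 in the microglia libraries, highest in that of rIL-13 mouse 6, with 102783 to 149824 in the PBS group and 9137 to 63480 in the rIL-4 group and all 9 listed genes detected, against 11.4 to 372 in the macrophage libraries. Endothelial genes summed to 25510 to 86760 in microglia and 1720 to 16191 in macrophages, and the part of these cell types in the results was not tested. Neutrophil genes were highest in the macrophages of rIL-13 mouse 6 (105721, against 5631 to 42588 in the other macrophage libraries), while of 6 lymphocyte markers at most 1 was detected in each microglia group.

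Values below are normalized counts, the deposited count divided by a library's size factor, on a scale that covers all 18 libraries. A member was called when the edgeR quasi-likelihood test gave a Benjamini-Hochberg adjusted p under 0.05 over all genes tested in that comparison, with 3 mice a group. Because the cells of a sort were pooled into bulk RNA, fewer cells of a type and less RNA per cell cannot be told apart in any of these values.

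All 78 members were present in every library. Together they made up 0.208% to 0.368% of the counts of a library. Per kilobase of annotated exon, the highest were Mrpl28 (1789.96 normalized counts per kilobase), Mrpl18 (1702), Mrpl36 (1691), Mrpl27 (1667), Mrpl12 (1661), which forms the flexible stalk of the large subunit that binds translation factors, and Mrps21 (1498). The lowest were Mrps35 (95.9), Mrpl33 (115), Mrps10 (115), Mrps31 (137), Mrpl47 (151) and Mrps30 (153). The highest member thus stood 18.7-fold above the lowest, and the median was 586 for the large subunit and 424 for the small one. Length is in the denominator of this level, and the order was nearly that of the annotated exon lengths, with a rank correlation of −0.84 across the 78 members. Per kilobase of the median protein-coding transcript, a scale added after the data were seen, Mrpl20 (4275), Mrpl42 (3319) and Mrpl30 (3133) came first, Mrpl33 moved from place 77 to place 19, and Mrpl36 was the 1 member in the first 6 on both scales. Mrpl47 and Mrps35 were in the last 6 on both.

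**Figure D1:**
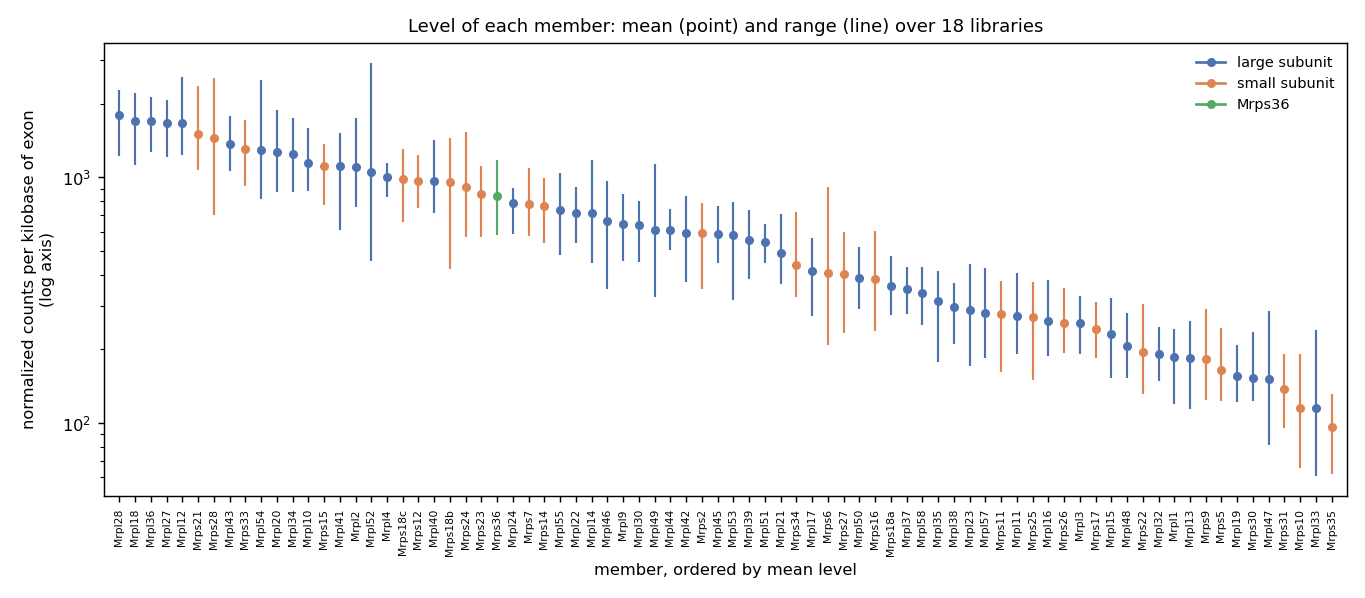
Level of each of the 78 members in normalized counts per kilobase of annotated exon (log axis), ordered from highest to lowest. Points are means and lines the range over 18 libraries, coloured by subunit; large and small subunit members are mixed along the order, from Mrpl28 at 1789.96 to Mrps35 at 95.9.

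Members differed in how far mice of the same group stood apart. The standard deviation of the log2 level within groups had a median of 0.24 over the 78, and was smallest in Mrpl4 (0.10) and Mrpl37 (0.13). It was largest in Mrpl52 (0.59), Mrpl33 (0.43), Mrpl46 (0.40) and Mrpl47 (0.35). Mrpl52, a protein of the large subunit without a bacterial counterpart, had 1290.1, 3237 and 934 normalized counts in the macrophages of rIL-13 mice 5, 6 and 7, and 521, 1411 and 1162 in those of rIL-4 mice 8, 9 and 10. In both groups 1 mouse therefore stood far from the others, upwards in the first and downwards in the second. The summed neutrophil genes were 16099.5, 105721 and 13816 normalized counts in the same rIL-13 libraries and 5631, 23854 and 12093 in the rIL-4 libraries, in each group highest in the mouse with most Mrpl52, and their part in the level of Mrpl52 was not tested.

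The members lay on 17 chromosomes (GRCm38), with 11 of them on chromosome 11. A protein-coding gene that starts within 1000 bases in the opposite direction, so that both could share a promoter region, was annotated for 33 of the 78 (42.3%), against 2384 of 21951 protein-coding genes (10.9%). Several of these neighbours also act in mitochondria, as Ndufs6 beside Mrpl36, Ndufb5 beside Mrpl47, Twnk beside Mrpl43 and Sars2 beside Mrps12, and Mrpl46 and Mrps11 lie head to head with each other. Exon bases were shared with another gene in 33 members, in 20 of them with a protein-coding gene on the opposite strand. The libraries did not record the strand, so reads from such bases cannot be assigned to either gene by strand.

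The 250 bases before the transcription start, as RefSeq places it on GRCm38.p6, were searched for 4 motifs on both strands, and 69 of the 78 members had such a window. The core of the NRF1 motif, GCGCATGC, named for a factor known for driving nuclear genes of mitochondrial function, was in 8 of 69 windows (11.6%) against 514 of 16390 protein-coding genes (3.14%). The ETS core CCGGAAGT that GABPA (NRF2) binds was in 9 of 69, against 660 of the 16390 (4.03%), the YY1 core AAGATGGC in 4 of 69 (5.80%), against 246 of the 16390, and the E-box CACGTG, a palindrome that MYC binds, in 5 of 69 (7.25%), against 6.82%. The median GC content was 58.4% in the members and 56.0% over all, and these shares are descriptions of the letters. Windows of 4 members that the results below turn on, and of Mrps22 as a member with the ETS core, are given 5′ to 3′ along the gene's own strand, each ending at the base before the start, with the motif letters in capitals. Mrps25 (chr6:92184024-92184273, minus strand) and Mrpl49 (chr19:6057756-6058005, minus) held none of the 4 motifs, Mrps18b (chr17:35916441-35916690, minus) held the NRF1 core on the other strand, Mrpl37 (chr4:107066867-107067116, minus) the E-box and Mrps22 (chr9:98601680-98601929, minus) the ETS core.
Mrps25: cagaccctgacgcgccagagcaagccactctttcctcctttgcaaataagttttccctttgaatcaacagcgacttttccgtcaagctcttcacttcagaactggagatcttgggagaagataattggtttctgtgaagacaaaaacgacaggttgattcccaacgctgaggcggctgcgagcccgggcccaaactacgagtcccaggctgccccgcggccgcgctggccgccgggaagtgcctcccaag
Mrps18b: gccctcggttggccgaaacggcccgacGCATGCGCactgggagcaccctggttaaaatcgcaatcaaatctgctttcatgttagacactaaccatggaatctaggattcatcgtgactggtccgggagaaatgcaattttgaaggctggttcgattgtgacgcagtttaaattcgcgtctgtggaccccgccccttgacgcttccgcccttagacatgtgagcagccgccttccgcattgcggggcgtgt
Mrpl49: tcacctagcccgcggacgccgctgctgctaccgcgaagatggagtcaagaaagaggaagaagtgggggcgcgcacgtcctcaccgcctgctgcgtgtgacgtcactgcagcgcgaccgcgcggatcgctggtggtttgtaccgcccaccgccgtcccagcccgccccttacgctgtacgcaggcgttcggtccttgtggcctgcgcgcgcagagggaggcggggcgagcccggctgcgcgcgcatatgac
Mrpl37: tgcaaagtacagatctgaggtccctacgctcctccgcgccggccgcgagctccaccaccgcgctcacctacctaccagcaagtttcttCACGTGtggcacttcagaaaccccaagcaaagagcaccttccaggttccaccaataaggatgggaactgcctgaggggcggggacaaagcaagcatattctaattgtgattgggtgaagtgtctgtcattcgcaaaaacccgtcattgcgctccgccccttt
Mrps22: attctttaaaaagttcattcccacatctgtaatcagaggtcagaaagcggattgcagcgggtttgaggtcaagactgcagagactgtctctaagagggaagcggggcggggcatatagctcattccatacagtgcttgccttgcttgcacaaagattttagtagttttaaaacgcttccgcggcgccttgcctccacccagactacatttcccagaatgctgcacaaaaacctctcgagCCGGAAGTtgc

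In macrophages, 5 of the 78 members rose after rIL-4 and none fell. They were Mrps25 (chr6:92169525-92184033, GRCm38), Mrps18b (chr17:35910379-35916389) and Mrps28 (chr3:8802146-8923918) of the small subunit and Mrpl49 (chr19:6053622-6057785) and Mrpl37 (chr4:107055874-107066868) of the large one, all on the minus strand, with folds over PBS between 1.33 and 1.78. The 5 were 6.41% of the members, below the 14.0% of all 13606 genes that were called in this comparison (6.77% called higher, so the members' share of higher calls was close to that of all genes). The median log2 fold change of the members was 0.15 and 60 of the 78 were above 0, whereas the median of all genes tested was 0.02. The 3 PBS and the 3 rIL-4 libraries did not overlap in 9 members, all higher after rIL-4, against 34.1% of all genes.

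Mrps25, a small-subunit protein without a bacterial counterpart, had 1103, 1357 and 1368 normalized counts in the macrophages of PBS mice 1, 2 and 3 and 1896, 2408 and 2277 in those of rIL-4 mice 8, 9 and 10. Every rIL-4 library was above every PBS library, and the 1.78-fold rise (log2 fold change 0.83 ± 0.15 SE, adjusted p = 0.0057, edgeR) was called when any mouse was left out. Of its exon bases, 69.8% are shared with Nr2c2 on the opposite strand, a gene that had 152 ± 44.8 (SD, n = 3) normalized counts in PBS and 254 ± 121 in rIL-4 macrophages and was not called itself (adjusted p = 0.237, edgeR).

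Mrps18b is 1 of 3 mammalian relatives of the bacterial ribosomal protein S18, each of which has its own place in the mitochondrial ribosome. Mrps18c takes the place that S18 has in bacteria and was counted as having a bacterial counterpart, whereas Mrps18a and Mrps18b sit elsewhere and were counted as having none. Its macrophage libraries had 1579, 1853 and 2004 normalized counts after PBS and 2389, 3037 and 2655 after rIL-4, with no overlap. The rise was 1.54-fold (log2 fold change 0.62 ± 0.14 SE, adjusted p = 0.0164, edgeR) and was not called without PBS mouse 1, rIL-4 mouse 9 or rIL-4 mouse 10. The other relatives were not called, Mrps18c with a log2 fold change of 0.14 ± 0.23 (SE) and Mrps18a with 0.08 ± 0.18. That Mrps18b differed from them was not tested.

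Mrpl49, of the large subunit, had 657, 612 and 657 normalized counts in PBS macrophages and 853, 922 and 903 in rIL-4 macrophages. The spread within each group was narrow, and the rise of 1.44-fold (log2 fold change 0.53 ± 0.12 SE) had an adjusted p of 0.0182 in edgeR's test. Mrps28, a small-subunit protein, had 937, 990.2 and 1031 after PBS and 1282, 1774 and 1922 after rIL-4, a rise of 1.75-fold (0.80 ± 0.19 SE on the log2 scale, adjusted p = 0.0189, edgeR). Mrpl37 had 1363, 1415 and 1322 against 1678, 1934 and 1654, the smallest of these rises at 1.33-fold (0.41 ± 0.12 SE, adjusted p = 0.0471, edgeR). Syvn1, which shares 4.85% of the exon bases of Mrpl49 on the opposite strand, rose in the same comparison (log2 fold change 0.59 ± 0.17 SE, adjusted p = 0.0453, edgeR). For Mrpl49 and Mrps28 the call held in the fit without rIL-4 mouse 8 and in none of the other 5 fits that left out a mouse, and for Mrpl37 in none of the 6.

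After rIL-13, 2 of the 78 members were called in macrophages. The fitted log2 fold change was above 0 in 75 of the 78, with a median of 0.23 against 0.00 over all genes. Mrps25 and Mrps28 rose and no member fell, a share of 2.56% of the members against 4.19% of all genes called in either direction and 2.53% called higher. In 16 members the PBS and rIL-13 libraries did not overlap, all higher after rIL-13, against 24.3% of all genes. The comparison uses the same PBS libraries as that with rIL-4, so the 2 are not independent of each other.

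Mrps25 had 2137, 2462 and 1980.0 normalized counts in the macrophages of rIL-13 mice 5, 6 and 7, all above the PBS libraries given above, a 1.75-fold rise (log2 fold change 0.81 ± 0.15 SE, adjusted p = 0.0171, edgeR). Mrps28 had 1691, 1991 and 1350.1, again clear of the PBS libraries, and rose 1.74-fold (0.80 ± 0.19 SE, adjusted p = 0.0458, edgeR). Nr2c2, which overlaps Mrps25, had 152 ± 52.1 (SD, n = 3) in these macrophages, close to its level after PBS. Mrps25 was not called without PBS mouse 1, 2 or 3 (adjusted p up to 0.081, edgeR), and Mrps28 in none of the 6 fits that left out a mouse (0.0553 to 0.165, edgeR). The next members by p, not called, were Mrpl49 (827, 875 and 875 normalized counts, log2 fold change 0.45 ± 0.12 SE, adjusted p = 0.0755, edgeR) and Mrpl17, which had 3487, 4303 and 3059.7 after rIL-13 and 2074, 2995 and 2638 after PBS (0.52 ± 0.19 SE, adjusted p = 0.186, edgeR). Mrpl49 was separated from PBS by a gap larger than the spread of either group, whereas Mrpl17 was separated by little.

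No member differed between the cytokines in macrophages by edgeR, against 0.250% of all genes, with 1 member at an unadjusted p under 0.05 (11.1% of all genes) and none called by DESeq2 (3.09% of all genes). The median log2 difference, rIL-4 over rIL-13, was −0.06 with 27 of 78 above 0, and the libraries did not overlap in 4 members against 14.0% of all genes. Mrpl33 had 838, 1757 and 872 normalized counts after rIL-13 and 446, 776 and 806 after rIL-4 (log2 fold change −0.75 ± 0.33 SE, adjusted p = 0.442, edgeR). The groups did not overlap, and the library of rIL-13 mouse 6 stood far above the other 5, as it did in the neutrophil genes. Mrpl37 was 0.27 ± 0.12 (SE) higher on the log2 scale after rIL-4, while Mrps21 (−0.46 ± 0.24) and Mrpl53 (−0.49 ± 0.26) were lower with overlapping libraries. Of the exon bases of Mrpl53, 88.0% are shared with Gm42688 on the same strand. That gene had 225 ± 38.4 (SD, n = 3) normalized counts after rIL-13 and 214 ± 47.0 after rIL-4.

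**Figure D2:**
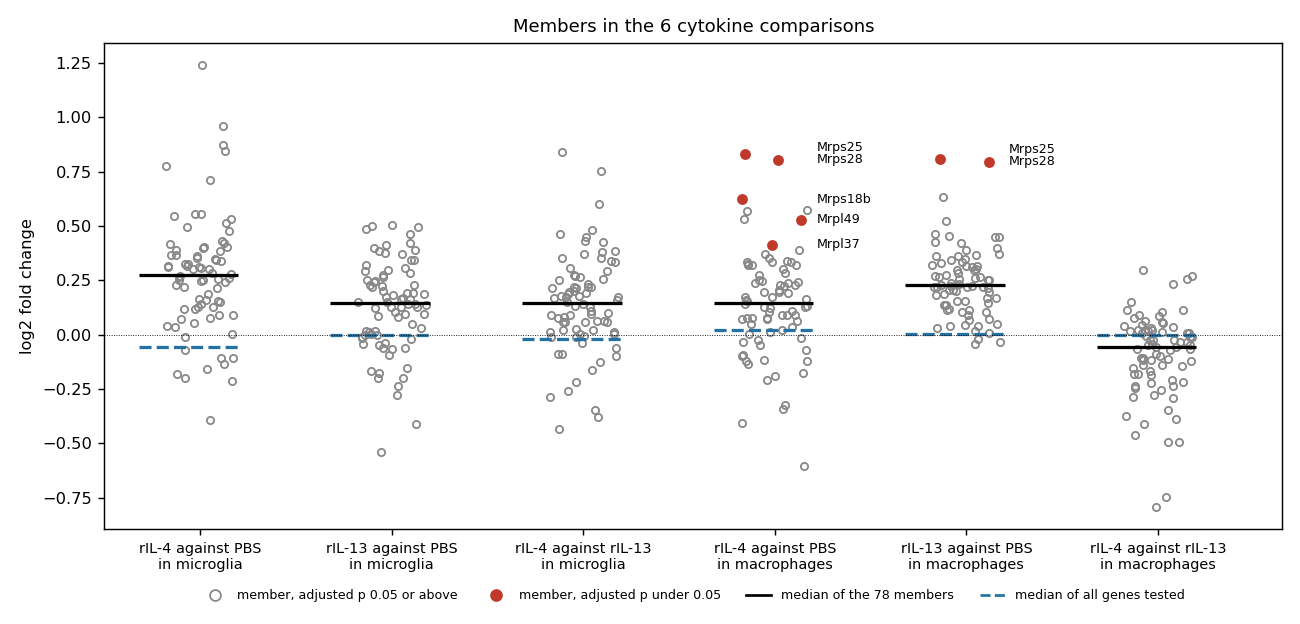
Log2 fold changes of the 78 members (points) in the 6 cytokine comparisons, with the members' median (solid line) and the median of all genes tested (dashed line). Filled points passed an adjusted p of 0.05: 5 for rIL-4 and 2 for rIL-13 against PBS in macrophages, all higher, and none in the other comparisons.

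In microglia no member was called after rIL-4 by edgeR. The median log2 fold change of the members was 0.27, against −0.06 over all 15566 genes tested, and 68 of 78 members were above 0. Of all genes 2.22% were called. DESeq2 called 4 members, all higher (Mrps25, Mrpl15, Mrpl47 and Mrps22), and 7.81% of all genes. In edgeR 11 members, all higher, had an unadjusted p under 0.05, as did 16.4% of all genes, so neither count of members exceeded the share of all genes. The PBS and rIL-4 libraries did not overlap in 20 members, 19 higher and 1 lower, a share of 25.6% against 26.0% of all genes. The microglia libraries also differed in the fibroblast and endothelial genes given above. Genes with a count numbered 17620 to 18371 in PBS and 15193 to 15626 in rIL-4 microglia libraries. Mitochondrially encoded protein genes took 2.18% to 3.01% of the counts in the former and 6.35% to 12.2% in the latter. The part of these differences in the shift was not tested.

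Mrps25 led this comparison as well, with 981, 1448 and 1022 normalized counts in PBS microglia and 2148, 2458 and 1939.8 in rIL-4 microglia, without overlap (log2 fold change 0.96 ± 0.22 SE, adjusted p = 0.0599, edgeR). Mrpl15, a core protein of the large subunit with a bacterial counterpart, had 1405, 1474 and 1289.9 after PBS and 2451, 2732 and 2251 after rIL-4 (0.87 ± 0.20 SE, adjusted p = 0.0624, edgeR). Both sets of rIL-4 libraries stood well above the highest PBS library. Mrpl47, which lies near the tunnel exit of the large subunit, had 500.3, 585 and 359.5 against 975, 1256 and 1094, the largest fold of all members at 2.36 (1.24 ± 0.34 SE, adjusted p = 0.111, edgeR). Mrps22, of the small subunit, had 634, 559 and 819 against 1058, 1085 and 1222 (0.77 ± 0.23 SE, adjusted p = 0.138, edgeR). In all of these the groups did not overlap, and the adjusted p nevertheless missed the threshold.

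After rIL-13 no member was called in microglia by edgeR (0.366% of all genes were called). The median log2 fold change was 0.15 against 0.00 over all genes, 57 of 78 members were above 0, 3 had an unadjusted p under 0.05 (7.76% of all genes) and DESeq2 called none (2.07% of all genes). The libraries did not overlap in 8 members (7 higher, 1 lower), against 16.1% of all genes. Mrpl10, which anchors the stalk of the large subunit, had 1566, 1503 and 2078 normalized counts after PBS and 2358, 2709 and 2179.5 after rIL-13 (log2 fold change 0.50 ± 0.19 SE, adjusted p = 0.578, edgeR). Mrpl38 was the member that was lower, with 902, 841 and 734 after PBS and 536, 616 and 541 after rIL-13 (−0.54 ± 0.23 SE, adjusted p = 0.627, edgeR). Mrps25 (0.50 ± 0.22 SE) and Mrpl45 (0.42 ± 0.19 SE), a protein near the exit of the peptide tunnel, were higher without a call.

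Between the cytokines no member was called in microglia by edgeR (0.0385% of all genes), 3 had an unadjusted p under 0.05 (11.4% of all genes) and DESeq2 called 1, Mrps22 (3.58% of all genes). The median log2 difference, rIL-4 over rIL-13, was 0.15 with 62 of 78 above 0, and 6 members did not overlap, all higher after rIL-4, against 12.2% of all genes. Mrps22 had 525, 720.5 and 674 normalized counts after rIL-13, close to PBS and below each of the rIL-4 libraries (log2 fold change 0.84 ± 0.23 SE, adjusted p = 0.299, edgeR). Mrps14 had 2065, 1883 and 1753 against 2505, 2458 and 2562 (0.43 ± 0.14 SE, adjusted p = 0.343, edgeR), and Mrpl15 and Mrpl47 were higher by 0.48 ± 0.20 and 0.75 ± 0.34 (SE).

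The test of whether a cytokine acted differently in the 2 cell types called no member. For rIL-4, 0.992% of all 16535 genes tested were called by edgeR, the median difference of the members' log2 fold changes (microglia minus macrophages) was 0.11, 1 member had an unadjusted p under 0.05 (12.4% of all genes), and DESeq2 called none (4.17% of all genes). That member was Mrpl47, whose microglia had the values given above while its macrophages had 507, 559.8 and 642 normalized counts after PBS and 461, 686 and 594 after rIL-4. The difference of 1.13 ± 0.41 (SE) on the log2 scale had an adjusted p of 0.234 (edgeR). Next came Mrps22 (0.59 ± 0.29 SE), Mrpl15 (0.52 ± 0.29) and, in the other direction, Mrpl39 (−0.46 ± 0.27). For rIL-13, 0.0242% of all genes were called, the members' median was −0.09, none had an unadjusted p under 0.05 (5.83% of all genes) and DESeq2 called none (0.931% of all genes). The lowest p belonged to Mrpl38 (−0.55 ± 0.26 SE, adjusted p = 0.854, edgeR), followed by Mrps6 (−0.71 ± 0.42), Mrpl50 (−0.42 ± 0.27) and Mrps14 (−0.35 ± 0.23).

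**Figure D3:**
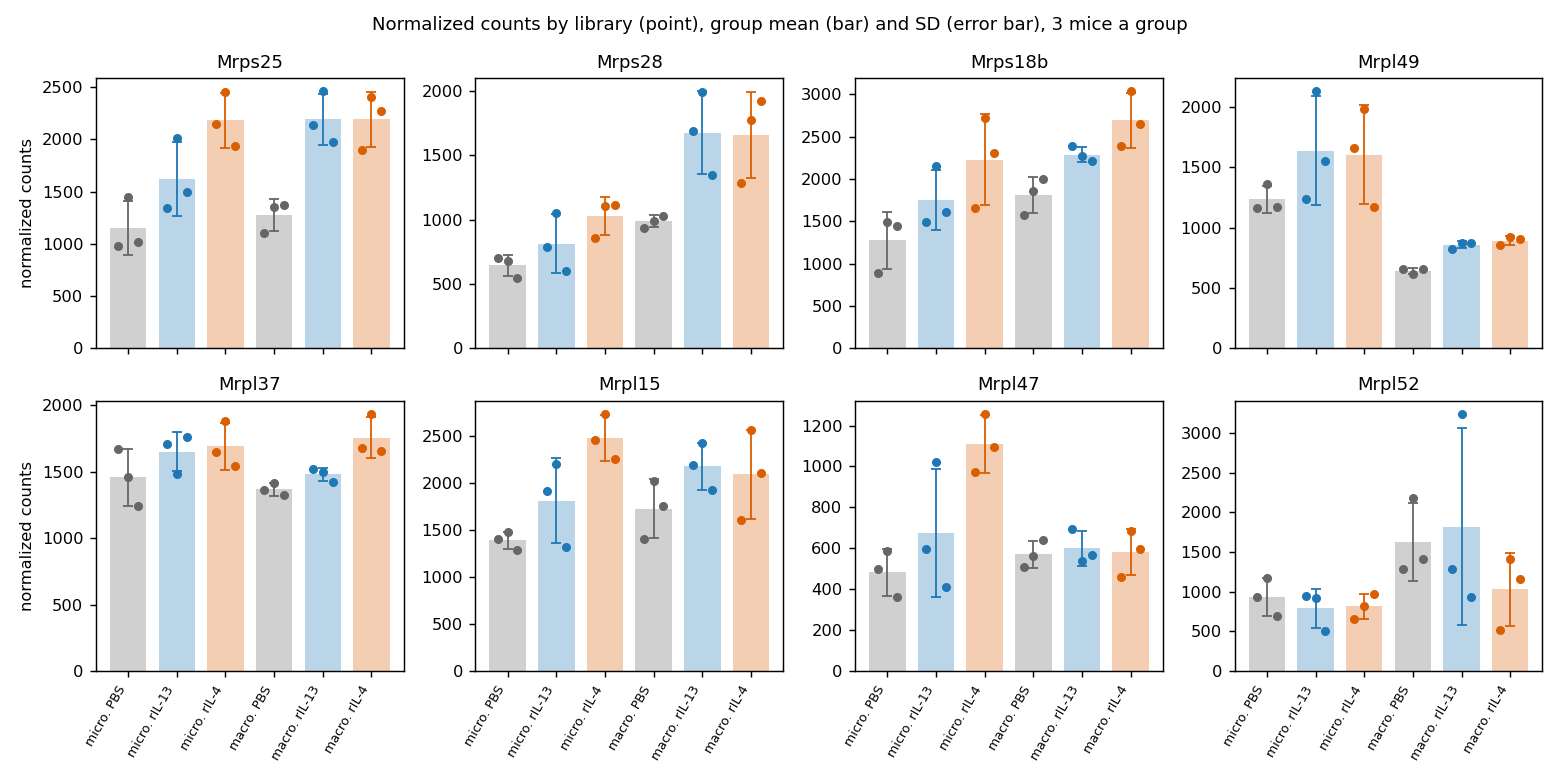
Normalized counts of 8 members in each library (points), with group means (bars, from 0) and SD (error bars), 3 mice a group. Mrps25 and Mrps28 are higher in both cytokine groups of macrophages than in PBS, Mrpl47 stands at 975 to 1256 in rIL-4 microglia, Mrpl49 is higher in microglia throughout, and 1 macrophage library of rIL-13 sets the spread of Mrpl52.

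Few members were called between the cell types, and those that were lay in both directions. After PBS 6 of 78 members (7.69%) were called, 2 higher in microglia and 4 lower, against 40.9% of all 14715 genes, and 17 members did not overlap against 54.0% of all genes. The members' median log2 fold change, microglia over macrophages, was −0.10. After rIL-4 2 were called (2.56%, against 23.4% of all genes) and 15 did not overlap (41.0% of all genes), with a median of 0.00. After rIL-13 4 were called (5.13%, against 26.7%) and 18 did not overlap (44.8% of all genes), with a median of −0.17. The 3 comparisons share no library. In 47 of the 78 members the difference had the same sign after all 3 treatments, 16 higher and 31 lower in microglia, a share of 60.3% against 68.7% of the 12905 genes tested in all of them.

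Mrpl49 was the member that was called after every treatment. It had 1166, 1365 and 1172 normalized counts in PBS microglia, 1238, 2132 and 1551 after rIL-13 and 1660.5, 1985 and 1170.3 after rIL-4, each above every macrophage library of the same treatment (values above). The log2 fold change was 0.88 ± 0.15 (SE, adjusted p = 0.00198) after PBS, 0.90 ± 0.23 (0.026) after rIL-13 and 0.80 ± 0.23 (0.0418) after rIL-4, all by edgeR. With the mouse as a block, the adjusted p after rIL-4 was 0.0684 (edgeR), and after either cytokine the call was lost when any of the 3 mice was left out. The overlapping Syvn1 was lower in microglia after PBS (log2 fold change −0.97 ± 0.18 SE, adjusted p = 0.00267, edgeR), rIL-4 (−1.45 ± 0.31) and rIL-13 (−1.22 ± 0.27).

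Mrps6, the small-subunit relative of bacterial S6, had 820.5, 1013 and 746 normalized counts in PBS microglia against 318, 421 and 416 in PBS macrophages, with a wide gap (log2 fold change 1.10 ± 0.20 SE, adjusted p = 0.00277, edgeR). After rIL-4 the microglia of mouse 9 had 1404 whereas the others had 597 and 584, and the macrophages 495, 574 and 545. Mrps6 was not called there or after rIL-13, and it shares 305 exon bases with another annotated gene on the same strand. Mrpl47 was called after rIL-4 (log2 fold change 0.89 ± 0.25 SE, adjusted p = 0.0347, edgeR), with the microglia at 975 to 1256 and the macrophages at 461 to 686. The call was lost without any 1 of the 3 mice. Ndufb5, which shares 13.9% of the exon bases of Mrpl47 on the opposite strand, was not called there (adjusted p = 0.412, edgeR). Mrpl13 (0.59 ± 0.20 SE) and, lower in microglia, Mrps28 (−0.74 ± 0.23) followed without a call. Mtbp, which shares 4.16% of the exon bases of Mrpl13 on the opposite strand, was higher in microglia (1.52 ± 0.37 SE, adjusted p = 0.0213, edgeR). With the mouse as a block Mrps28 was called there (adjusted p = 0.0425, edgeR).

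The members that were lower in microglia after PBS were Mrps28, Mrpl23, Mrpl52 and Mrpl54. Mrps28 had 704, 677 and 549 normalized counts in PBS microglia, all below the macrophages (937, 990.2 and 1031, log2 fold change −0.68 ± 0.17 SE, adjusted p = 0.0108, edgeR), and after rIL-13 784, 1055 and 600.4, again below (−1.07 ± 0.26 SE, adjusted p = 0.0206, edgeR). Mrpl23, at the tunnel exit of the large subunit, had 1058, 997 and 969 against 1338, 1563 and 1424 after PBS (−0.58 ± 0.14 SE, adjusted p = 0.0115, edgeR) and 1273, 1233 and 835 against 1998, 2165 and 1688 after rIL-13 (−0.84 ± 0.22 SE, adjusted p = 0.029, edgeR). In both treatments the cell types were apart. A pseudogene of Mrpl23 also had counts in all libraries, and reads that fit both could have been split between them.

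Mrpl52 had 931, 1176 and 694 in PBS microglia against 1284, 2183 and 1405 (−0.86 ± 0.26 SE, adjusted p = 0.0257, edgeR). The neutrophil genes summed to 23672, 42588 and 22137 in PBS macrophages, highest in mouse 2 as Mrpl52 was. In PBS microglia they summed to 2126, 2643 and 2979.55, highest in mouse 3, which had the least Mrpl52. The part of neutrophil genes in this difference was not tested. Mrpl54 had 888, 756 and 713 against 888, 1403 and 1228, with the cell types touching in mouse 1 (−0.64 ± 0.20 SE, adjusted p = 0.0338, edgeR). With the mouse as a block Mrpl54 was not called (adjusted p = 0.0562, edgeR), while Mrps18b (log2 fold change −0.60, adjusted p = 0.0226) and Mrpl1 (−0.60, adjusted p = 0.0402), which were not called without it (0.0655 and 0.0538), were called lower in microglia. Mrps24, a small-subunit protein near the entry of the message, was called after rIL-13, with 1166, 1149 and 1049.7 in microglia and 1743, 2236 and 1517 in macrophages (−0.74 ± 0.20 SE, adjusted p = 0.031, edgeR). For Mrps28, Mrpl23, Mrpl52 and Mrpl54 the call after PBS held in 1 of the 3 fits that left out a mouse, being lost without mouse 3 in all of them, without mouse 1 in Mrpl52 and without mouse 2 in the others. After rIL-13 the call of Mrps28 was lost without mouse 5 or mouse 7, and those of Mrpl23 and Mrps24 without any of the 3 mice.

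**Figure D4:**
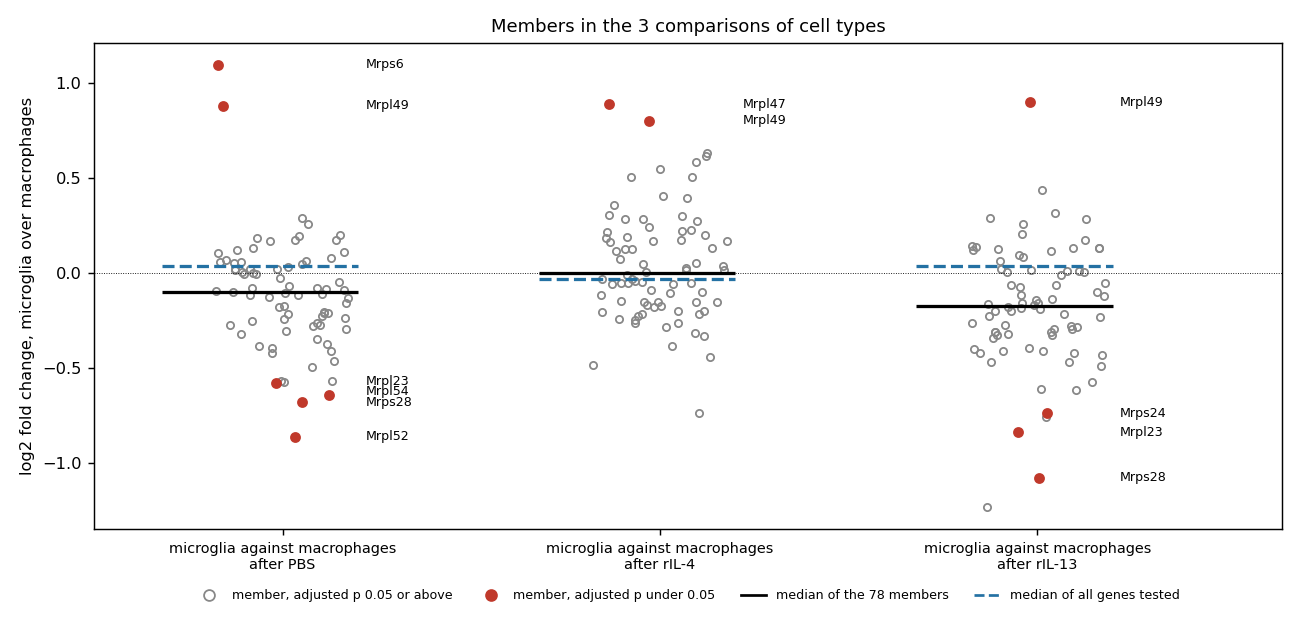
Log2 fold changes of the 78 members, microglia over macrophages, after each treatment, with the members' median (solid line) and the median of all genes tested (dashed line). Filled points passed an adjusted p of 0.05: 6 after PBS, 2 after rIL-4 and 4 after rIL-13, with Mrpl49 higher in microglia in all 3.

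The medians of both subunits lay above 0 in all 4 comparisons with PBS. In rIL-4 microglia the median log2 fold change was 0.27 for the 51 large and 0.27 for the 26 small subunit members, in rIL-13 macrophages 0.22 and 0.26, in rIL-4 macrophages 0.11 and 0.22, and in rIL-13 microglia 0.17 and 0.06. Members with and without a bacterial counterpart had medians of 0.28 and 0.26 in rIL-4 microglia and of 0.24 and 0.22 in rIL-13 macrophages. Some members chosen for their role were not called in any comparison. Among them, Mrpl12 was higher after rIL-4 by 0.53 ± 0.17 in microglia and 0.39 ± 0.18 in macrophages (log2, SE), and Mrps36 by 0.55 ± 0.21 and 0.33 ± 0.19. Mrps12, part of the decoding site, had 0.15 ± 0.24 and 0.32 ± 0.18, Mrpl11, at the base of the stalk, 0.23 ± 0.27 and 0.09 ± 0.19, and Mrps30 0.34 ± 0.26 and 0.20 ± 0.14. The microglia of rIL-4 mouse 8 had 1567 normalized counts of Mrps30, whereas mice 9 and 10 had 923 and 818.

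The level of the members as a whole varied between mice of the same group. As a measure for a library, the deviation of each member from its own mean over the 18 libraries was averaged over the 78 on the log2 scale. In microglia it was −0.15, −0.01 and −0.24 for PBS mice 1, 2 and 3, −0.01, 0.18 and −0.24 for rIL-13 mice 5, 6 and 7, and 0.00, 0.24 and 0.05 for rIL-4 mice 8, 9 and 10. In macrophages it was −0.26, 0.06 and −0.04, then 0.17, 0.28 and −0.05, and then −0.25, 0.18 and 0.10 in the same order. Mouse 6 was thus the highest and mouse 7 the lowest of the rIL-13 group in both cell types, and mouse 9 the highest and mouse 8 the lowest of the rIL-4 group, while mouse 2 was the highest of the PBS group in both. In macrophages the summed neutrophil genes gave the same order in both cytokine groups and were highest in PBS mouse 2. In microglia their order differed from that of the members in each group. Fibroblast and pericyte genes in microglia were highest in PBS mouse 2, rIL-13 mouse 6 and rIL-4 mouse 8. The part of these cell types in the members' level was not tested. In both cell types the range within each group was wider than any difference between the group means.

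**Figure D5:**
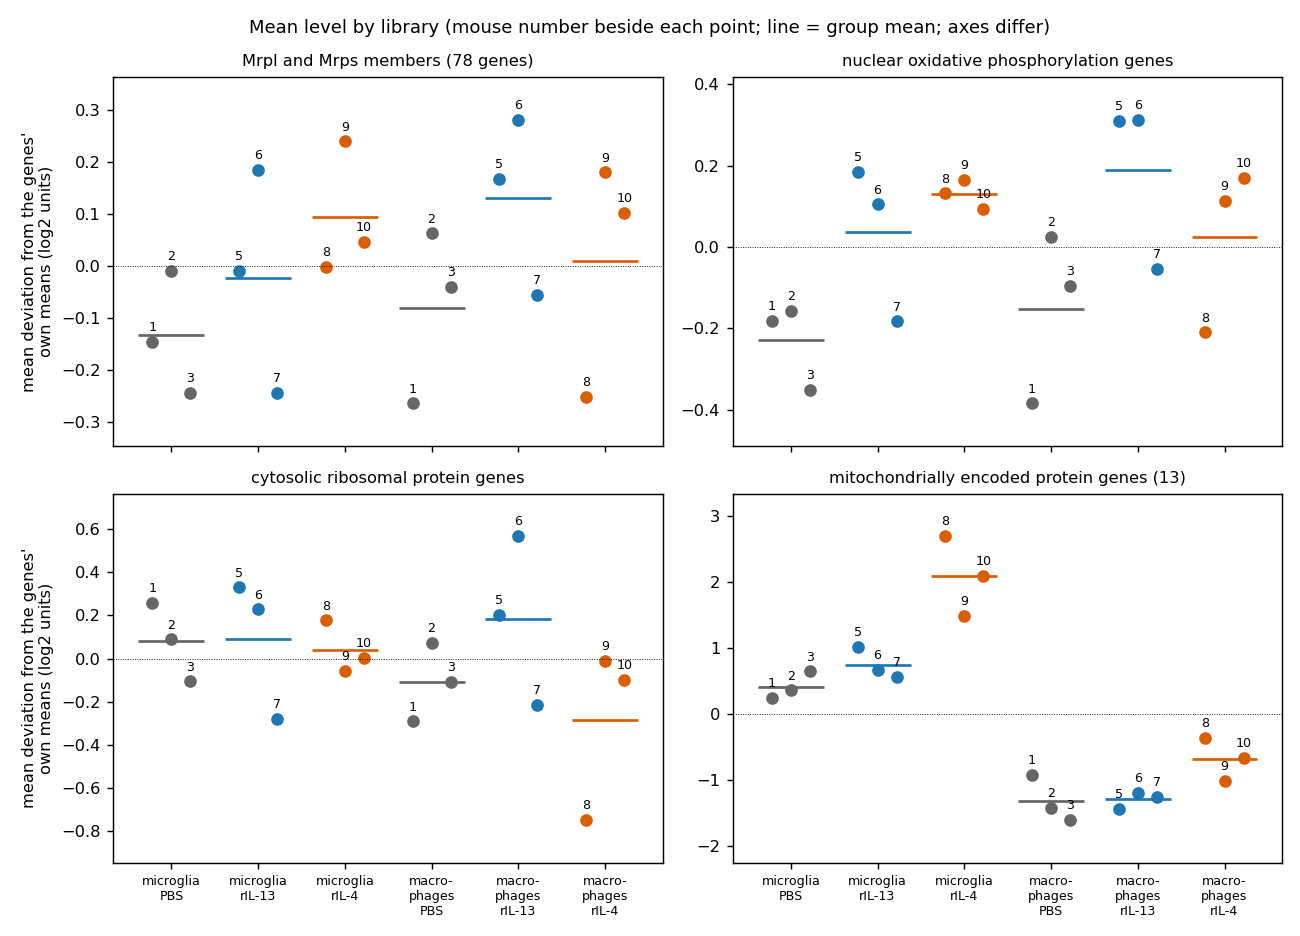
Mean deviation on the log2 scale of 4 gene lists in each library, from each gene's own mean over the 18 libraries; numbers are mice, lines are group means, and the vertical axes differ. The 78 members stand between −0.26 and 0.28, whereas the 13 mitochondrially encoded genes stand at 1.49 to 2.70 in rIL-4 microglia and below 0 in all macrophage libraries.

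The 13 protein genes of the mitochondrial genome, which the mitochondrial ribosome translates, had larger fold changes than the members after rIL-4, though the lists were not tested against each other. Their summed normalized counts were 787607 to 1066710 in PBS microglia, 1112620 to 1266820 after rIL-13 and 2160930 to 4895020 after rIL-4. In rIL-4 microglia 10 of the 13 were called, all higher, with a median log2 fold change of 1.83, where 2.22% of all genes were called. In rIL-4 macrophages 5 of 13 rose (median 0.65), where 6.77% of all genes were called higher. In rIL-4 mice the library with the highest sum was that of mouse 8 in both cell types (4895020 in microglia, 567365 in macrophages), the mouse with the lowest level of the members. The lowest sum was that of mouse 9 in both (2160930 and 348284), the mouse with the highest level of the members. An opposite order was also seen in PBS and rIL-13 macrophages. It was not seen in PBS or rIL-13 microglia, where rIL-13 mouse 7 had both the lowest sum (1112620) and the lowest level of the members. Between cell types 11 of the 13 were higher in microglia after PBS, 13 after rIL-4 and 9 after rIL-13, against 40.9%, 23.4% and 26.7% of all genes called in either direction. Both mitochondrial ribosomal RNA genes were called higher in microglia after all 3 treatments (edgeR, shares of all genes as above), with median log2 fold changes of 1.25, 2.54 and 1.42 after PBS, rIL-4 and rIL-13. Neither was called in a comparison of a cytokine with PBS. Their sum was 595380 to 753749 in PBS microglia and 1914370, 522169 and 1586550 in rIL-4 microglia, so that mouse 9 lay below every PBS library and the others above. In macrophages it was 226606 to 327224 after PBS and 153090 to 267140 after rIL-4, with overlap.

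The other nuclear genes of the pathway were read by list. Among 24 assembly factors of the mitochondrial ribosome 1 rose in rIL-4 macrophages and none was called in the other comparisons with PBS (medians 0.12 in rIL-4 microglia and −0.01 in rIL-4 macrophages). Of 15 translation factors 1 rose and of 20 aminoacyl-tRNA synthetases 1 rose in rIL-4 macrophages, where 6.77% of all genes were called higher, and none of either list was called in rIL-13 macrophages or in microglia after either cytokine. Between the cell types, the assembly factors gave 3 calls after PBS (1 higher in microglia, 2 lower) and 1 lower after rIL-13, against 40.9% and 26.7% of all genes. The 5 further proteins of the mitochondrial ribosome that carry other names, such as Dap3, gave no call in the 4 comparisons with PBS. The 76 nuclear genes of oxidative phosphorylation, whose products join the mitochondrially encoded ones in the respiratory complexes, had 5 called higher in rIL-4 microglia, 15 in rIL-4 macrophages and 3 in rIL-13 macrophages, with none lower and with medians of 0.40, 0.23 and 0.38. Of all genes 2.22% were called in the first of these comparisons in either direction, and 6.77% and 2.53% were called higher in the others. The cytosolic ribosomal protein genes had medians of −0.01 in rIL-4 microglia and −0.12 in rIL-4 macrophages, where 1 of 82 was called higher, and 0.34 in rIL-13 macrophages with none called. Of 20 proliferation genes 10 fell in rIL-4 macrophages, where 14.0% of all genes were called in either direction, and all 20 were higher in microglia than in macrophages after each treatment, against the shares of all genes between cell types given above.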

How the data were processed

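RNA of sorted cells was sequenced from full-length cDNA (SMART-seq2, no strand and no molecular identifiers), so PCR copies are counted as reads. The authors aligned the reads to GRCm38 with STAR 2.5.3a and made expected counts per gene with RSEM 1.3.0, deposited as whole numbers for 18 libraries; the annotation release is not given in the sources used here. Positions and lengths come from GENCODE on GRCm38, in which 70 of the 78 members have the same versioned identifier.

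Each fit used the whole table and its p-values were adjusted by Benjamini-Hochberg over all genes tested (edgeR 4.0.16 in R 4.3.3: filterByExpr, TMM, glmQLFit, glmQLFTest). Cytokines were compared in the 9 libraries of a cell type, cell types in the 6 libraries of a treatment, and the difference of responses in all 18. Normalized counts are counts divided by DESeq2 1.42.0 size factors. The standard error is the log2 fold change divided by the square root of F. The script was tested on simulated data. The members and lists were chosen with earlier results of these data known. Members named are, in each comparison, those called or, where fewer than 4 were, the 4 of lowest p; the 6 highest, the 6 lowest and the 4 most variable by level; and Mrps18a, Mrps18b, Mrps18c, Mrps30, Mrps36, Mrpl12, Mrps12 and Mrpl11 for their role. Members that lead the transcript scale or vary least were named after their values were seen, as were overlapping genes, neighbours and Mrpl1. Tried as alternatives were DESeq2, its size factors, 2 other filters, fits on fewer or more libraries, the mouse as a block and leaving out each mouse. Both libraries of a mouse come from the same animal, and their deviations from the group means correlated in each of the 9 mice (0.0619 to 0.226 over 9911 genes); over the 78 members alone this correlation ran from −0.133 in mouse 1 to 0.472 in mouse 7. Mice are separate animals of a group.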

Additional observations from a re-analysis of the deposited data

Results flagged for a closer look

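The pseudogene Mrpl23-ps1, which the rule on names left out, had counts in all 18 libraries, with a mean of 452 counts per library and a range of 247 to 605. It was picked out because it is a signal outside the 78 members. The other 4 pseudogene rows held at most 10 counts in any library.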

How the results depend on the processing

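Counts of called members depended on the setting. The share of all genes called under the same setting moved as well and stands in brackets. In rIL-4 against PBS in microglia (0 called) DESeq2 called 4 [7.81%], a minimum of 10 counts in every library 1 [3.48%], the 6 libraries compared 1 [2.85%] and all 18 libraries in a single model 5 [5.74%]. DESeq2 called 1 [3.58%] in rIL-4 against rIL-13 in microglia. In macrophages, rIL-4 against PBS (5) gave 3 with all genes with any count [8.72%], 2 with all 18 libraries [6.37%], and 1 to 6 when a mouse was left out [7.39% to 11.4%] (1 without PBS mouse 1 or rIL-4 mouse 9 or 10, 2 without PBS mouse 2 or 3, 6 without rIL-4 mouse 8). rIL-13 against PBS (2) gave 1 with DESeq2 size factors [3.98%], 1 with all 18 libraries [1.55%], and 0 to 1 without a mouse [1.41% to 3.76%]. Between cell types, PBS (6) gave 3 with all 18 libraries [25.6%] and 2 to 8 without a mouse [28.9% to 34.5%] (8 without mouse 1, 2 without mouse 3), rIL-4 (2) gave 4 with DESeq2 [29.3%], 0 with any count [12.8%], 4 with all 18 libraries [27.6%] and 0 without any mouse [12.9% to 18.3%], and rIL-13 (4) gave 9 with all 18 libraries [29.4%] and 0 to 1 without a mouse [8.44% to 25.4%]. With the mouse as a replicate block, 7 members were called after PBS [40.2%], 2 after rIL-4 [20.6%], 4 after rIL-13 [25.4%] and 0 for either difference of responses; calls it moved stand beside the results. The causes were not tested. The 47 member results named as called or of lowest p had 514 alternative values. Of these, 514 kept their direction, while 71 calls were lost and 19 gained. The results were picked from the same data and refitted on largely the same libraries, so their kept direction is no independent support. Results given only for a member's role or level are not in this count. Over the alternatives, the members' median log2 fold change ran from 0.18 to 0.34 in rIL-4 microglia, 0.04 to 0.22 in rIL-13 microglia, 0.04 to 0.22 in rIL-4 against rIL-13 in microglia, 0.05 to 0.27 in rIL-4 macrophages, 0.13 to 0.32 in rIL-13 macrophages, and −0.21 to −0.01 between cell types after PBS. It changed sign in rIL-4 against rIL-13 in macrophages without rIL-4 mouse 8 (0.07). It also did so between cell types after rIL-4, where it was 0.00, under 3 alternatives, and in the difference of rIL-13 responses without PBS mouse 1 (0.01). Each group holds 3 mice, which limits the precision.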
